A study of Mus musculus with 9 samples.

Results

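The genes described here are 50 mouse genes of the kinetochore, the spindle checkpoint and the exit from mitosis, chosen by symbol from 18194 genes named on the array. They comprise the checkpoint and its RZZ arm, the activators of the anaphase-promoting complex (APC/C), the mitotic kinases, the chromosomal passenger complex, kinetochore proteins, condensin, the separase system, the central spindle and spindle assembly factors, with the transcription factor Foxm1. Kinesins and cyclins were left out of the choice and are given as neighbouring lists. All 50 were on the array, with 119 probe-sets between them. Of these genes, 14 had 1 probe-set and 36 had several, up to 5, and each gene is given by its probe-set with the highest mean signal. Symbols followed the current names, so that Sgol1 appears in the tables as Sgo1.

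At mitosis the kinetochore is built on centromeric chromatin and binds the microtubules of the spindle. Unattached kinetochores assemble a checkpoint complex that holds back Cdc20, the APC/C activator, until every chromosome is attached. The APC/C then marks securin and mitotic cyclins for destruction, separase cuts cohesin, and the cell leaves mitosis. Most of these genes are transcribed in late G2 and mitosis, through promoters that carry CCAAT boxes and a cell cycle homology region (CHR) and are bound by MuvB complexes with B-Myb and Foxm1. Cells that stop dividing, as primary fibroblasts do when they become senescent, make less of these transcripts.

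RNA was measured in primary mouse embryo fibroblasts (MEFs) from embryos of 13.5 days, of a mixed C57BL/6J x 129Sv/J background, with no treatment named. A 3T3 protocol is described for the growth assays, and no passaging schedule is named for the array cultures. There were 3 arrays of independent cultures in each of 3 groups. Cultures without Tgif1 (Tgif1 -/-) were taken at passage 3 and are called null below, and wild type cultures were taken both at passage 5 (P5) and at passage 3 (P3). Tgif1 encodes a homeodomain protein that limits transcription downstream of TGFβ, and both copies were lost in all cells of the embryo rather than in a chosen cell type. Which embryos or litters gave the cultures, and whether P5 cultures descended from the P3 cultures, is not given in the sources used here.

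Tgif1 itself read 2.48, 3.21 and 2.50 on the null arrays and 10.07, 10.07 and 10.18 on the P5 arrays, against 9.82, 9.95 and 9.72 on the P3 arrays, all log2 signals. The lowest value on every array was 2.23. Of 10 fibroblast markers, 9 were above a log2 signal of 4 on all null arrays, 10 on all P5 arrays and 9 on all P3 arrays. Relative to P3, Dcn fell in the null, and Col1a2 and Lum rose at P5. All 3 fell in the null relative to P5. Markers of other cells also differed between groups. Of 12 skeletal muscle markers, 10 rose in the null relative to P3, while at P5 6 fell and Acta1 rose relative to P3. Summed linear signals were 4312 to 6140 on null arrays, 4409 to 5349 on P5 arrays and 2141 to 2279 on P3 arrays. Acta1 made up most of the P5 and P3 sums. Its mean log2 signal was 10.92 in the null, 12.17 at P5 and 10.57 at P3. Of the 12, 11 lay above a log2 signal of 4 on all null arrays, 4 on all P5 arrays and 8 on all P3 arrays. Myod1 was near the lowest value in all groups. The 12 macrophage markers summed to 828 to 1286 on the null arrays, 381 to 449 on the P5 arrays and 522 to 567 on the P3 arrays, and 8 of them were higher in the null than at P3 at an unadjusted p under 0.05, of which Ctss passed, as did a dimmer probe-set of Csf1r. Relative to P5, 6 of the 12 rose in the null. Aif1 was near the lowest value throughout and Ptprc on the P5 and P3 arrays. Of 6 endothelial markers, 4 were near the lowest value in all groups, and Emcn rose in the null relative to P5. Of 7 epithelial and mesothelial markers, Krt18 fell by 2.66 on the log2 scale at P5 relative to P3. Relative to P5, Krt18 rose and Msln fell in the null. The part of these cells in the values below was not tested. In cultures measured as a whole, fewer dividing cells and less RNA per dividing cell cannot be told apart.

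Bub1b, Cenpf and Aurkb, taken as markers of these genes, lay above a log2 signal of 4 on every array. Of the 50, 49 were above 4 on all 9 arrays, and the exception was Mad1l1, which binds Mad2 at unattached kinetochores and read between 3.47 and 4.52. Its values lay near background.

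Promoters of 5 genes are shown because their genes span the patterns described below: Bub1b, Cdc20 and Cenpf were intermediate in the null, Spc25 was as low in the null as at P5, and Hmmr was level with P3 in the null and lower at P5. The windows are from RefSeq, build GRCm38.p6, from 250 bases before the annotated start to 30 bases after it, 280 bases each, written 5′ to 3′ on the strand of the gene. Capitals mark CHR elements (TTTGAA or TTCGAA) and CCAAT boxes, on either strand, so that CCAAT on the other strand reads ATTGG.
Bub1b (BubR1, a kinase-like component of the checkpoint complex), chr2:118597961-118598240, plus strand: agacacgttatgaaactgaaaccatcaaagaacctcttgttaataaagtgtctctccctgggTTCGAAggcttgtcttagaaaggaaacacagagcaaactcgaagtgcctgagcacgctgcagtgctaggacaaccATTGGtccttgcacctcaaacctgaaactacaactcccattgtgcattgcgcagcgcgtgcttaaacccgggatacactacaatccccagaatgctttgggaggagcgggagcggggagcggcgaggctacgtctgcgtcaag
Cdc20 (the APC/C activator that the checkpoint holds back), chr4:118437314-118437593, minus strand: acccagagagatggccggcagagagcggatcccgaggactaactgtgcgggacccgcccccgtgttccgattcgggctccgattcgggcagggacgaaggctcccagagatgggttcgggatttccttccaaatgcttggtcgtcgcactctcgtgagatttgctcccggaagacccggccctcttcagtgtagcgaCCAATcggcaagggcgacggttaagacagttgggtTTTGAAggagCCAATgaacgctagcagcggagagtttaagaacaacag
Cenpf (an outer kinetochore protein of G2 and mitosis), chr1:189688057-189688336, minus strand: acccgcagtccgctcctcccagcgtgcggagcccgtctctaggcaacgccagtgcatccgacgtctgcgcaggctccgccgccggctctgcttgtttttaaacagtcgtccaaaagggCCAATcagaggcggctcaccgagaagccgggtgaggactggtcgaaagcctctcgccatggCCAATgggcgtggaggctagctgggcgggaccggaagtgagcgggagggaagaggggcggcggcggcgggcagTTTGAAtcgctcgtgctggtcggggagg
Spc25 (a subunit of the Ndc80 complex, which binds microtubules), chr2:69206184-69206463, minus strand: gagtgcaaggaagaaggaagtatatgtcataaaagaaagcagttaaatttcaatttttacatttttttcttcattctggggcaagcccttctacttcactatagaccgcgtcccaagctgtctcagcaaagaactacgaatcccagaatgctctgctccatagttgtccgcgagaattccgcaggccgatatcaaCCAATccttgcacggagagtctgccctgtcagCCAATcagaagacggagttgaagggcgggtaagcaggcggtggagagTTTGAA
Hmmr (a microtubule-binding protein of the spindle), chr11:40733408-40733687, minus strand: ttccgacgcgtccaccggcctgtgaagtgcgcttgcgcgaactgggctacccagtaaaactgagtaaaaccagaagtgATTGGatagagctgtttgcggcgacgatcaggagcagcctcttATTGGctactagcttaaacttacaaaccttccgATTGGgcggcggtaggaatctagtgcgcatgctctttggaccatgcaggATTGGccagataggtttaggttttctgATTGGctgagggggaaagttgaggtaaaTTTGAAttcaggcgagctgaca

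Each of these windows held both kinds of element. In Cenpf the CHR began at position 3 after the start, in Hmmr at position 9 and in Spc25 at position 25, while in Cdc20 it began at position -18, between CCAAT boxes that began at -53 and -8. Bub1b had TTCGAA at position -188 and a further TTTGAA at position 41, outside the stretch shown. Hmmr held 5 CCAAT boxes, all on the other strand.

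The promoter table held 43 of the 50 genes, with several windows for 5 of them and 49 windows in all, each of 250 bases before and 50 after the start. A CHR on either strand was found in 59.2% of these 49 windows, against 19.2% of all 32851 windows of the table. CCAAT was found in 71.4%, against 37.4% of all. An E2F element (TTTCCCGC, TTTCGCGC, TTTGCCGC or TTTGGCGC) was found in 4.08%, against 2.26%, in the condensin genes Ncapd2 and Ncapg. TTCGAA reads the same on both strands, and neighbouring elements of different kinds may share bases. The 26 genes with a CHR had a median log2 difference of -0.34 in the null and -0.79 at P5, both relative to P3, and the 17 without one had -0.46 and -0.74. A match is a string of letters in a window, not a binding site.

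Wild type cells at passage 5 were compared with those at passage 3 to ask how these genes changed as cultures aged. All 50 genes were lower at P5, by a median of 0.74 on the log2 scale. Of them 42 fell, none rose and 8 did not pass, with the adjusted p set at under 0.05, in the moderated limma fit over all probe-sets. Over all 18194 genes 7.11% fell and 6.13% rose, and over the 10009 genes with a log2 signal above 4 on at least 3 arrays 12.8% fell, with a median difference of -0.03. At an unadjusted p under 0.05, 46 were lower and none was higher, where 14.4% of all genes and 25.4% of those with signal were lower. All 3 P5 values lay below all 3 P3 values for 46 of the 50, against 16.2% of all genes and 28.5% of those with signal. The largest falls were those of Bub1b, Espl1, Cenpe, Foxm1, Ncapd2, Plk1 and Cenpf, each more than 1 on the log2 scale. The 8 that did not pass were Fzr1, Ect2, Cenpi, Smc2, Pttg1, Ckap2, Nusap1 and Mad1l1.

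Tgif1 null cells were compared with wild type cells of the same passage to ask what the loss of Tgif1 did. In the null, 47 of the 50 genes were lower, by a median of 0.36 on the log2 scale over all 50. Of them 13 fell, none rose and 37 did not pass, where over all genes 1.07% fell and 1.51% rose, and over the 10009 genes with signal 1.92% fell, with a median difference of -0.01. The 13 were Bub1b, Mad2l1, Cdc20, Plk4, Nek2, Aurkb, Incenp, Cdca8, Cenpk, Cenpf, Spc25, Ncaph and Tacc3. By probe-set, the 2 of Aurkb fell, 2 of 3 for Cdca8, the single probe-set of Mad2l1, and 1 of 2 to 5 for each other gene. Of all 119 probe-sets of the 50 genes, 15 fell and none rose. A mean signal above 4 was found for 83 of them, of which 75 were lower in the null and 8 higher. At an unadjusted p under 0.05, 39 of the 50 genes were lower and none was higher. The shares lower were 7.57% of all genes and 13.2% of those with signal. The null values lay wholly below the P3 values for 35 of the 50, against 7.73% of all genes and 13.5% of those with signal. Only Nuf2, Zw10 and Hmmr were higher, by 0.11, 0.07 and 0.03 on the log2 scale, with adjusted p of 0.778, 1 and 0.997 in limma's test. The count of 13 depended on single arrays: it was 7, 3 and 5 without null replicates 1, 2 and 3, 1, 14 and 4 without P3 replicates 1, 2 and 3, and 3, 7 and 7 without P5 replicates 1, 2 and 3, and Spc25 alone was left without P3 replicate 1.

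**Figure D1:**
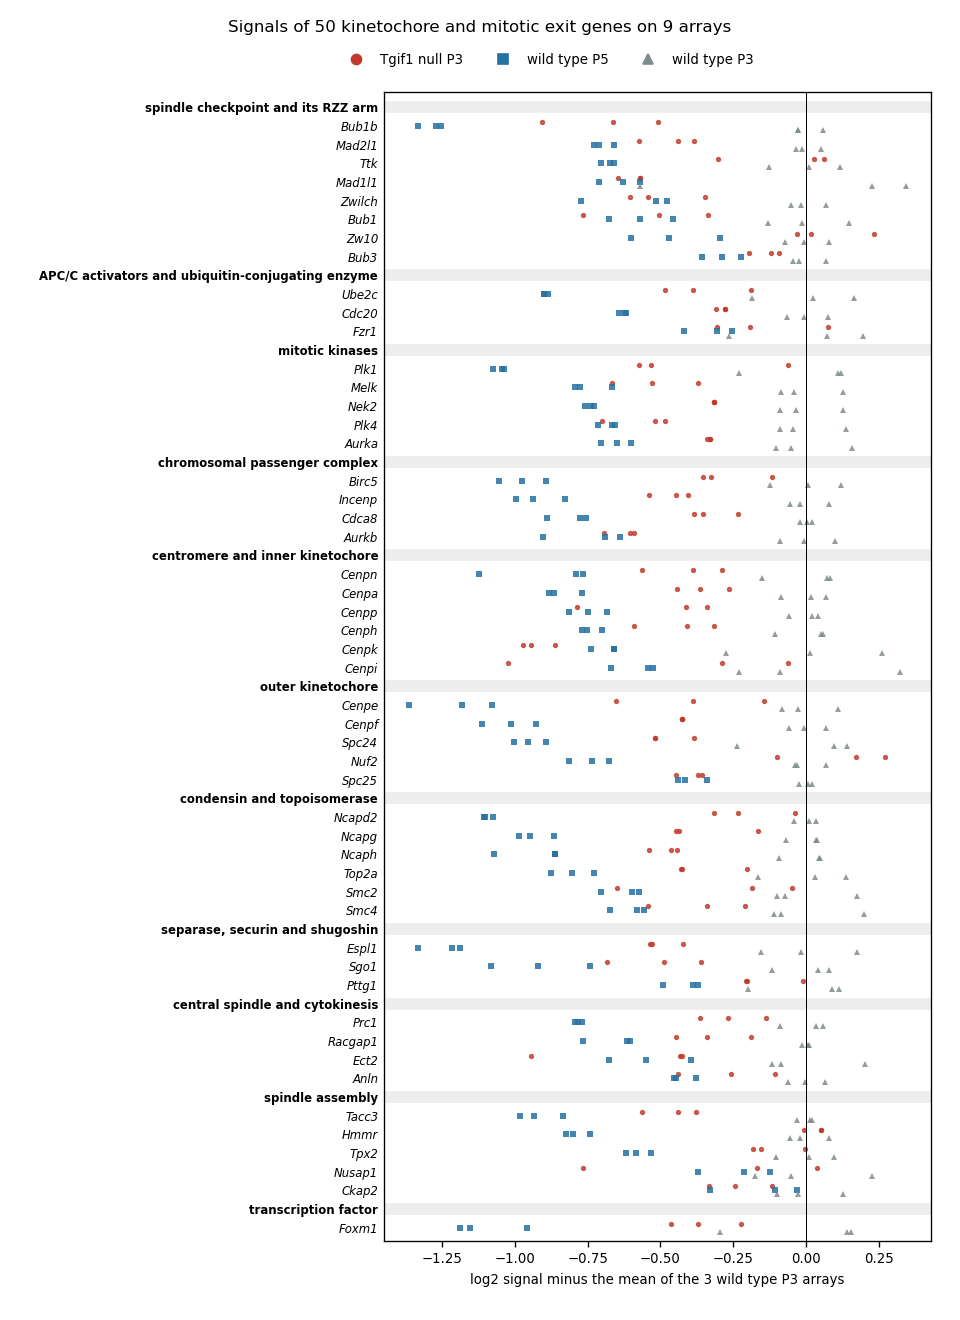
Log2 signal of each of the 50 genes on each of the 9 arrays, minus the mean of the 3 wild type P3 arrays of that gene, with genes grouped by role and 1 point an array (circles, Tgif1 null P3; squares, wild type P5; triangles, wild type P3). The P5 points lie to the left of the P3 points for 46 of the 50 genes, and the null points lie to the left of the P3 points for 35.

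The null and P5 comparisons share the P3 arrays, so the difference between them was tested directly, as null against P5. The null was higher than P5 for 46 of the 50 genes, by a median of 0.41 on the log2 scale. Of them 27 rose, none fell and 23 did not pass, against 6.08% of all genes that rose and 5.33% that fell, and 10.8% and 9.15% of those with signal. At an unadjusted p under 0.05, 34 were higher and none was lower, where 14.2% of all genes and 24.7% of those with signal were higher. All null values lay above all P5 values for 35 of the 50, against 16.6% of all genes and 29.1% of those with signal. The 4 that were lower in the null were Cenpk, Ckap2, Nusap1 and Ect2, and none of them passed. The count of 27 was 16 without null replicate 2, without P5 replicate 1 and without P5 replicate 2, and 18 without null replicate 1, without P3 replicate 1 or without P5 replicate 3. By array, the median shift of the 50 genes from the P3 mean was -0.39, -0.38 and -0.34 on the null arrays and -0.71, -0.77 and -0.72 on the P5 arrays. The null and P5 medians did not overlap.

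**Figure D2:**
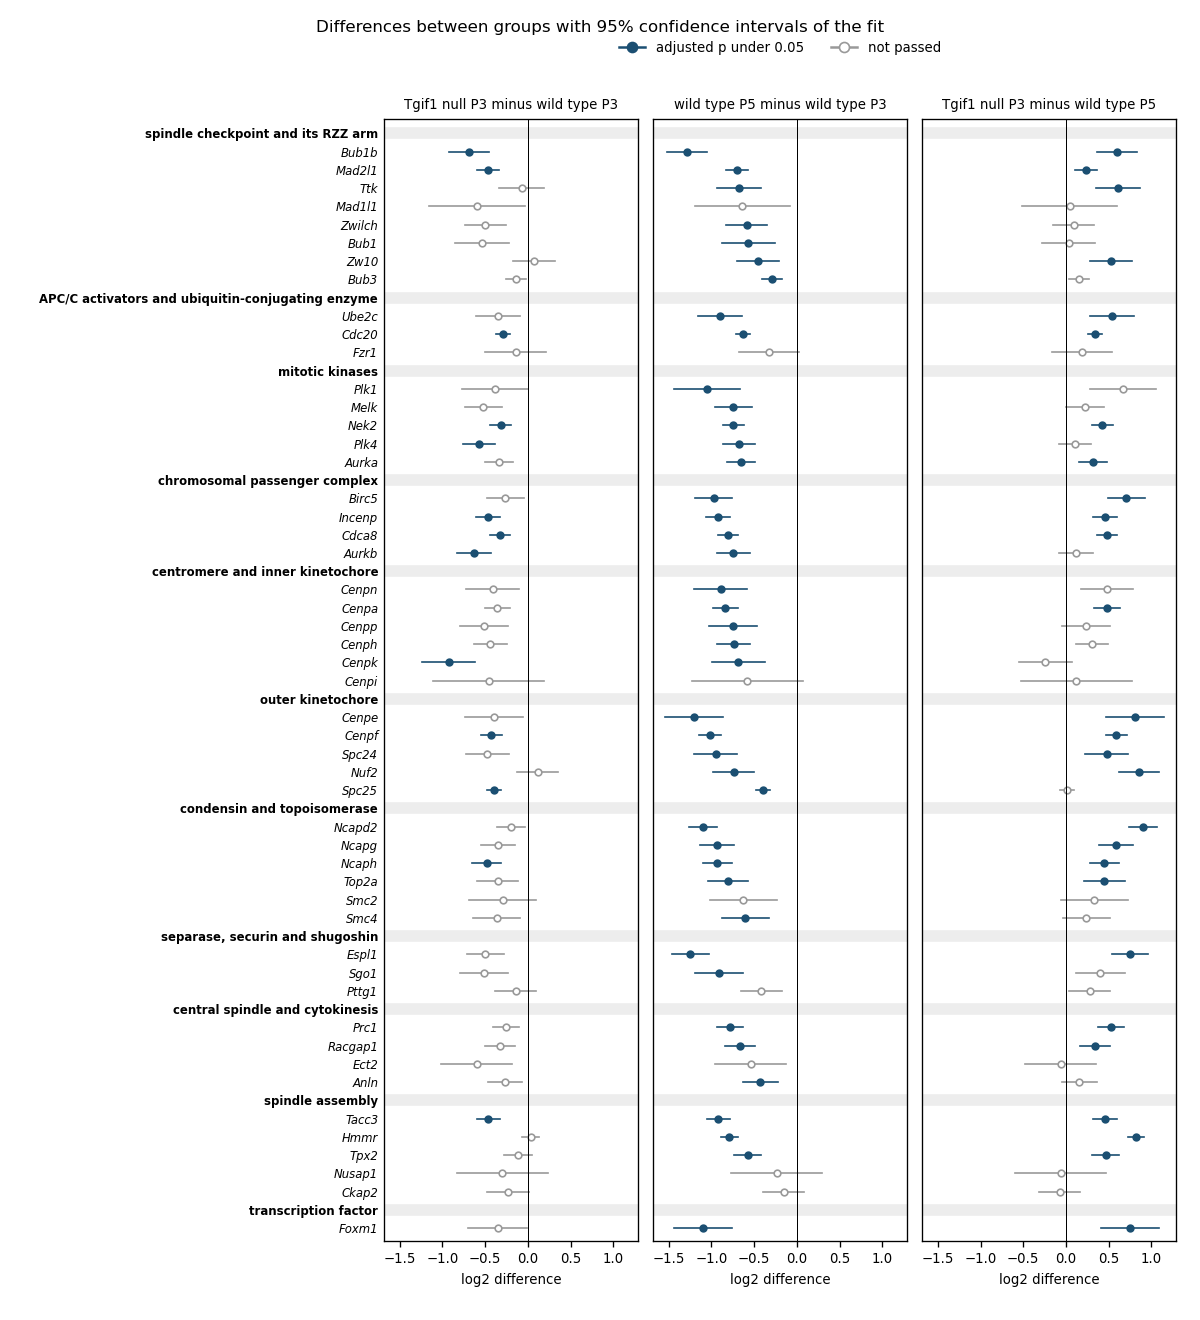
Log2 difference of each of the 50 genes with its 95% confidence interval from the fit, for Tgif1 null P3 minus wild type P3 (left), wild type P5 minus wild type P3 (middle) and Tgif1 null P3 minus wild type P5 (right); filled points passed at an adjusted p under 0.05. Filled points number 13, 42 and 27 in the 3 panels, to the left of 0 in the first and second and to the right in the third.

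Among the 8 genes of the checkpoint and its RZZ arm, 2 fell in the null and 7 fell at P5. Bub1b read 7.29, 7.53 and 7.69 on the null arrays and 6.94, 6.86 and 6.92 on the P5 arrays, against 8.17, 8.25 and 8.17 on the P3 arrays. The 3 groups were fully separate, with the null between. Bub1b was 1.62-fold lower in the null than at P3 (log2 difference -0.69, SE 0.10, adjusted p 0.0291) and 2.44-fold lower at P5 (-1.29, SE 0.10, adjusted p 0.00111), and it was higher in the null than at P5 by 0.59 (adjusted p 0.0177). Its other probe-set with signal gave -0.50 in the null, which did not pass, and -0.84 at P5, which fell. Mad2l1, the protein that binds and restrains Cdc20, read 11.18, 11.12 and 10.99 on the null arrays and 10.85, 10.83 and 10.91 on the P5 arrays, against 11.61, 11.55 and 11.53 on the P3 arrays. Both lower groups lay apart from P3 and did not overlap each other. Mad2l1 fell by 0.47 in the null (SE 0.05, adjusted p 0.0151) and by 0.70 at P5 (SE 0.05, adjusted p 0.00105).

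Other checkpoint genes did not keep to this order. Ttk (Mps1), the kinase that starts checkpoint signalling, read 7.53, 7.86 and 7.90 in the null and 7.16, 7.13 and 7.17 at P5, against 7.84, 7.95 and 7.71 at P3. Its null values overlapped those of P3 (difference -0.07, 95% interval -0.33 to 0.19) and lay above those of P5 (0.61, adjusted p 0.0233). Zw10, a subunit of the RZZ complex that recruits Mad1 and dynein, had the same shape, 0.07 higher in the null than at P3 (interval -0.17 to 0.32) and 0.53 higher than at P5 (adjusted p 0.0307). Bub1, which marks the kinetochore for shugoshin and BubR1, read 9.28, 9.54 and 9.71 in the null and 9.59, 9.48 and 9.37 at P5, against 10.04, 10.20 and 9.92 at P3. Its null and P5 values overlapped (difference 0.03, interval -0.28 to 0.34), and it fell only at P5 at the threshold (-0.57, adjusted p 0.0472), with -0.54 in the null (adjusted p 0.137). Zwilch, a further RZZ subunit, was likewise close in null and P5, at 0.09 (interval -0.15 to 0.33). Bub3, the partner of Bub1 and BubR1, fell by 0.29 at P5 (adjusted p 0.0157) and gave -0.14 in the null, which did not pass.

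Of the APC/C genes, Cdc20 read 11.98, 11.98 and 11.95 in the null and 11.64, 11.62 and 11.64 at P5, against 12.25, 12.19 and 12.34 at P3. The groups were separate, with the null between. It fell by 0.29 in the null (SE 0.03, adjusted p 0.019) and by 0.63 at P5 (SE 0.03, adjusted p 0.000455). Null replicates 1 and 2 had the same deposited value, and the null SD was 0.02. Such a small SD lowers the shared estimate of the spread and with it the p-values. The other 2 probe-sets of Cdc20 gave -0.43 and -0.23 in the null, which did not pass, and fell at P5. The one at -0.23 had the same value, 5.15, on all 3 null arrays. Ube2c, the APC/C's ubiquitin-conjugating enzyme, read 12.33, 12.13 and 12.03 in the null and 11.63, 11.62 and 11.62 at P5, against 12.54, 12.33 and 12.68 at P3. It fell by 0.89 at P5 (adjusted p 0.00515), while the null difference of -0.35 did not pass (adjusted p 0.256). Fzr1 (Cdh1), which activates the APC/C at mitotic exit and in G1, passed in no comparison, with -0.14 in the null and -0.33 at P5 and overlapping values in all groups.

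All 5 mitotic kinases fell at P5, and Plk4 and Nek2 fell in the null. Nek2, a centrosome kinase, had the same deposited value, 8.24, on all 3 null arrays and read 7.80, 7.83 and 7.82 at P5, against 8.52, 8.68 and 8.47 at P3. Cenpf also had equal values on the 3 null arrays, so that in both genes the null SD was 0, which lowers the shared estimate of the spread and with it the p-values. Nek2 fell by 0.32 in the null (adjusted p 0.0469) and by 0.74 at P5 (adjusted p 0.000895). Plk4, the kinase that starts centriole duplication, read 10.00, 10.18 and 10.21 in the null and 10.03, 10.04 and 9.98 at P5, against 10.65, 10.83 and 10.61 at P3. Null and P5 overlapped for Plk4 (difference 0.11, interval -0.08 to 0.30), and both lay below P3, by 0.57 in the null (adjusted p 0.0274) and 0.68 at P5 (adjusted p 0.00457). Aurka, the spindle pole kinase, read 8.73, 8.72 and 8.73 in the null and 8.36, 8.46 and 8.41 at P5, against 9.01, 9.22 and 8.96 at P3. Its null difference of -0.33 did not pass (adjusted p 0.0829), its P5 difference of -0.65 did (adjusted p 0.00331), and it was 0.32 higher in the null than at P5 (adjusted p 0.0429). Plk1, which acts from mitotic entry to cytokinesis, was 2.07-fold lower at P5 (-1.05, adjusted p 0.0118) and overlapped P3 in the null (-0.39, adjusted p 0.484). Melk, a kinase of proliferating cells, gave -0.52 in the null (adjusted p 0.0555) and -0.74 at P5.

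In the chromosomal passenger complex 3 of 4 genes fell in the null, and all 4 fell at P5. Its median in the null was -0.39, against -0.36 for all 50 genes. Aurkb, its kinase, read 8.29, 8.28 and 8.18 in the null and 8.19, 7.98 and 8.24 at P5, against 8.87, 8.98 and 8.79 at P3. The null overlapped P5, and both lay below P3. Aurkb fell by 0.63 in the null (SE 0.08, adjusted p 0.0237) and by 0.74 at P5 (SE 0.08, adjusted p 0.00399), with a difference of 0.11 between null and P5 (interval -0.08 to 0.31). A further Aurkb probe-set fell in both comparisons, by 0.67 and 0.98. Incenp, the scaffold that activates Aurora B, read 10.36, 10.23 and 10.32 in the null and 9.83, 9.77 and 9.94 at P5, against 10.74, 10.71 and 10.84 at P3. The 3 groups were separate for Incenp, with -0.46 in the null (adjusted p 0.023) and -0.92 at P5 (adjusted p 0.000683). Cdca8 (borealin) read 10.61, 10.76 and 10.64 in the null and 10.22, 10.10 and 10.24 at P5, against 10.99, 11.01 and 10.97 at P3. Cdca8 too was intermediate in the null, at -0.33 (adjusted p 0.0393) against -0.81 at P5 (adjusted p 0.000636). Birc5 (survivin) overlapped P3 in the null (-0.27, adjusted p 0.33), fell by 0.97 at P5 and was 0.71 higher in the null than at P5 (adjusted p 0.00715). In the null, Birc5 thus overlapped P3 and Aurkb overlapped P5, and whether the subunits differed from one another was not tested.

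**Figure D3:**
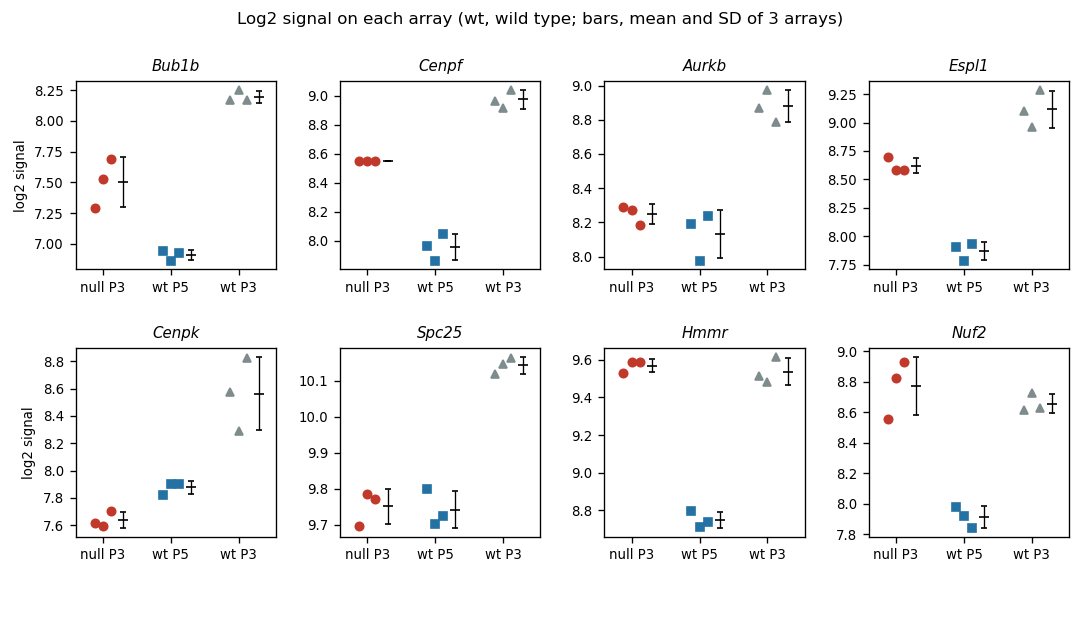
Log2 signal of 8 genes on each array, with Tgif1 null P3 on the left, wild type P5 in the middle and wild type P3 on the right of each panel, and the mean and SD of the 3 arrays as bars. In Bub1b, Cenpf and Espl1 the null lies between, in Aurkb and Spc25 it overlaps P5, in Cenpk it lies below P5, and in Hmmr and Nuf2 it overlaps P3.

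In the centromere and inner kinetochore, 5 of 6 genes fell at P5 and Cenpk fell in the null. Cenpa, the histone variant that marks the centromere, read 10.65, 10.55 and 10.47 in the null and 10.04, 10.05 and 10.15 at P5, against 10.94, 10.83 and 10.99 at P3. It was separate in all groups, with -0.36 in the null just outside the threshold (adjusted p 0.0538) and -0.84 at P5 (adjusted p 0.00102). Cenph, of the constitutive centromere network, read 8.44, 8.34 and 8.16 in the null and 8.05, 7.99 and 8.0 at P5, against 8.81, 8.65 and 8.81 at P3. Its null difference of -0.44 did not pass (adjusted p 0.0605) and its P5 difference of -0.74 did (adjusted p 0.00362). Cenpk, which forms a subcomplex with Cenph and Cenpi, read 7.62, 7.59 and 7.70 in the null and 7.82, 7.90 and 7.90 at P5, against 8.57, 8.29 and 8.82 at P3. Cenpk had the largest fall of the 50 genes in the null, 1.90-fold (-0.93, SE 0.13, adjusted p 0.0276), and was the only one whose null values all lay below its P5 values, although that difference of -0.24 did not pass (adjusted p 0.453). Cenpi ranged from 7.05 to 8.01 within the null and passed nowhere. Cenpn and Cenpp fell by 0.89 and 0.75 at P5, with -0.41 and -0.51 in the null that did not pass.

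All 5 outer kinetochore genes fell at P5, by a median of 0.95, and Cenpf and Spc25 fell in the null. Cenpf read 8.55 on each null array and 7.96, 7.86 and 8.05 at P5, against 8.97, 8.91 and 9.04 at P3. It was 1.34-fold lower in the null (-0.43, SE 0.05, adjusted p 0.0196) and 2.02-fold lower at P5 (-1.02, SE 0.05, adjusted p 0.000389). Spc25 read 9.70, 9.79 and 9.77 in the null and 9.80, 9.70 and 9.73 at P5, against 10.12, 10.15 and 10.16 at P3. Spc25 fell by nearly the same amount in both, 0.39 (adjusted p 0.00791) and 0.40 (adjusted p 0.00168), and null and P5 differed by 0.01 with an interval of -0.07 to 0.09. The other subunits of the Ndc80 complex gave other values. Spc24 gave -0.47 in the null (adjusted p 0.108) and -0.95 at P5, and Nuf2 read 8.56, 8.83 and 8.93 in the null and 7.98, 7.92 and 7.84 at P5, against 8.62, 8.73 and 8.63 at P3. Nuf2 overlapped P3 in the null and was 0.86 above P5 (adjusted p 0.00486). Ndc80 itself, outside the 50 and named here after its values were seen, gave -0.41 and -0.74 and passed in neither comparison with P3. Cenpe, the kinesin-like motor of kinetochores, was 2.31-fold lower at P5 (adjusted p 0.00488), with -0.40 in the null (adjusted p 0.375).

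Condensin compacts chromosomes, and topoisomerase II untangles them. Of these 6 genes 5 fell at P5 and Ncaph fell in the null. Ncapd2 read 8.54, 8.62 and 8.82 in the null and 7.75, 7.75 and 7.78 at P5, against 8.81, 8.89 and 8.86 at P3. Its null values reached those of P3 (-0.20, adjusted p 0.352), while P5 was 2.13-fold lower (adjusted p 0.000636), and the null was 0.90 above P5 (adjusted p 0.00136), the largest such difference of the 50. Ncaph, the kleisin of the same complex, read 9.47, 9.37 and 9.45 in the null and 9.05, 8.84 and 9.05 at P5, against 9.96, 9.82 and 9.96 at P3. It fell by 0.48 in the null (adjusted p 0.0332) and by 0.93 at P5 (adjusted p 0.00112), with separate groups. Ncapg fell by 0.93 and Top2a by 0.80 at P5, with null differences of -0.35 each that did not pass. Of the core ATPases, Smc4 fell at P5 (-0.60, adjusted p 0.0253), while Smc2 gave -0.62 there with an adjusted p of 0.0748.

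Separase (Espl1), the protease that opens cohesin, read 8.69, 8.58 and 8.59 in the null and 7.90, 7.78 and 7.93 at P5, against 9.10, 8.96 and 9.29 at P3. The 3 groups were separate, and Espl1 was 2.37-fold lower at P5 (-1.25, SE 0.09, adjusted p 0.000963). Its null difference of -0.50 did not pass (adjusted p 0.0602). Sgol1 (Sgo1), which protects centromeric cohesin, read 7.39, 7.59 and 7.71 in the null and 7.33, 7.0 and 7.15 at P5, against 7.96, 8.15 and 8.12 at P3. It fell by 0.91 at P5 (adjusted p 0.00667), with -0.51 in the null (adjusted p 0.123). Securin (Pttg1), the inhibitor of separase, passed in no comparison and gave -0.14 in the null and -0.42 at P5 (adjusted p 0.055).

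In the central spindle and cytokinesis group 3 of 4 genes fell at P5, and none passed in the null, although all 4 were lower there at an unadjusted p under 0.05. Prc1, which bundles antiparallel microtubules, read 10.04, 9.81 and 9.91 in the null and 9.38, 9.40 and 9.41 at P5, against 10.23, 10.09 and 10.21 at P3. It fell by 0.78 at P5 (adjusted p 0.00145) and gave -0.26 in the null (adjusted p 0.154). Racgap1, the GTPase-activating subunit of centralspindlin, read 9.43, 9.28 and 9.18 in the null and 9.02, 8.86 and 9.01 at P5, against 9.63, 9.61 and 9.63 at P3. It fell by 0.66 at P5 (adjusted p 0.00402), and was higher in the null than at P5 by 0.33 (adjusted p 0.0457), as Prc1 was by 0.52 (adjusted p 0.00629). Ect2, the exchange factor that activates RhoA, had no pass in any comparison, with -0.60 in the null and -0.54 at P5. Anln (anillin), a scaffold of the contractile ring, fell by 0.43 at P5 (adjusted p 0.0292).

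Of 5 spindle assembly genes, 3 fell at P5 and Tacc3 fell in the null. Hmmr read 9.53, 9.59 and 9.59 in the null and 8.80, 8.71 and 8.74 at P5, against 9.52, 9.48 and 9.62 at P3. Null and P3 overlapped, with a difference of 0.03 and an interval of -0.07 to 0.13, while P5 lay far below both, by 0.79 relative to P3 (adjusted p 0.000389), and the null was 0.82 above P5 (adjusted p 0.000353). Tacc3, which stabilises spindle microtubules, read 9.27, 9.09 and 9.21 in the null and 8.81, 8.71 and 8.67 at P5, against 9.67, 9.62 and 9.66 at P3. It was intermediate, at -0.46 in the null (adjusted p 0.0206) and -0.92 at P5 (adjusted p 0.000622). Tpx2, the activator of Aurora A, overlapped P3 in the null (-0.11, interval -0.27 to 0.05) and fell by 0.58 at P5 (adjusted p 0.00458). Nusap1 and Ckap2, both microtubule-binding, passed in no comparison, with -0.30 and -0.23 in the null and -0.24 and -0.16 at P5.

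Foxm1, the transcription factor that acts on many of these promoters, read 6.85, 6.70 and 6.61 in the null and 5.89, 5.92 and 6.12 at P5, against 7.23, 6.78 and 7.22 at P3. P5 lay wholly below both other groups, 2.14-fold lower than P3 (-1.10, SE 0.14, adjusted p 0.00684), and the null was 0.75 above P5 (adjusted p 0.0294). Relative to P3 the null difference of -0.35 did not pass (adjusted p 0.469), and P3 replicate 2, at 6.78, lay within the null range. Mybl2 (B-Myb), its partner on MuvB, read 5.40, 4.93 and 4.93 in the null and 4.13, 4.07 and 4.31 at P5, against 5.47, 5.62 and 5.34 at P3. It fell by 1.31 at P5 (adjusted p 0.00466), with -0.39 in the null (adjusted p 0.44).

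Genes of neighbouring pathways give the setting. Of 12 mitotic kinesins, 1 fell in the null and 9 at P5, and of 5 mitotic cyclin and Cdk1 genes, 2 and 5. Kif23, the motor of centralspindlin and partner of Racgap1, fell by 0.87 in the null (adjusted p 0.00782) and by 0.73 at P5 (adjusted p 0.00321). Kif2c, a microtubule depolymerase of centromeres, fell only at P5 at the threshold (-0.79, adjusted p 0.00505). Ccnb2 (cyclin B2) fell by 0.56 in the null (adjusted p 0.0123) and by 0.40 at P5 (adjusted p 0.00973), and Ccna2 (cyclin A2) by 0.95 at P5 (adjusted p 0.00134), with -0.37 in the null. Of 22 other kinetochore and centromere genes, 1 fell in the null, Ska1 of the Ska complex, by 0.54 (adjusted p 0.0174), and 7 fell at P5, among them Ska1 by 1.11 and Knstrn by 0.90 (adjusted p 0.00202). Of 3 condensin II genes none fell in the null (3 were lower at an unadjusted p under 0.05) and 2 fell at P5, Ncapd3 by 0.52 (adjusted p 0.00836) and Ncaph2 by 0.29 (adjusted p 0.0479).

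Of 12 APC/C core subunits, none fell in the null (1 at an unadjusted p under 0.05) and 2 fell at P5, Anapc1 by 0.41 (adjusted p 0.00846) and Anapc5 by 0.29 (adjusted p 0.0213), with list medians of -0.08 and -0.15. Of 9 cohesin genes, none fell in the null (1 without adjustment) and 4 fell at P5, among them Wapl, which releases cohesin, by 0.21 (adjusted p 0.0189) and the core subunit Smc1a by 0.42 (adjusted p 0.0209). Of 11 DREAM and MuvB regulators, none fell in the null (5 without adjustment) and Mybl2 and Rbbp4 fell at P5, Rbbp4, a histone-binding subunit of MuvB, by 0.40 (adjusted p 0.0165). The medians of these 11 were -0.01 and -0.22, and 4 of them were higher in the null. Of 27 genes of DNA replication and the G1/S transition, 3 fell in the null and 24 at P5, with medians of -0.33 and -0.83, against -0.36 and -0.74 for the 50. Mcm5, of the replicative helicase, read 11.23, 11.17 and 11.19 in the null and 10.57, 10.59 and 10.63 at P5, against 11.76, 11.65 and 11.84 at P3, and it fell by 0.55 in the null (adjusted p 0.00821) and by 1.16 at P5 (adjusted p 0.000219). Rrm1, of ribonucleotide reductase, fell by 0.54 at P5 (adjusted p 0.000496) and was level with P3 in the null (-0.02). At an unadjusted p under 0.05, 5 kinesins, 5 cyclin and Cdk1 genes, 8 other kinetochore and centromere genes and 17 replication genes were lower in the null. Whether any list differed from another was not tested.

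**Figure D4:**
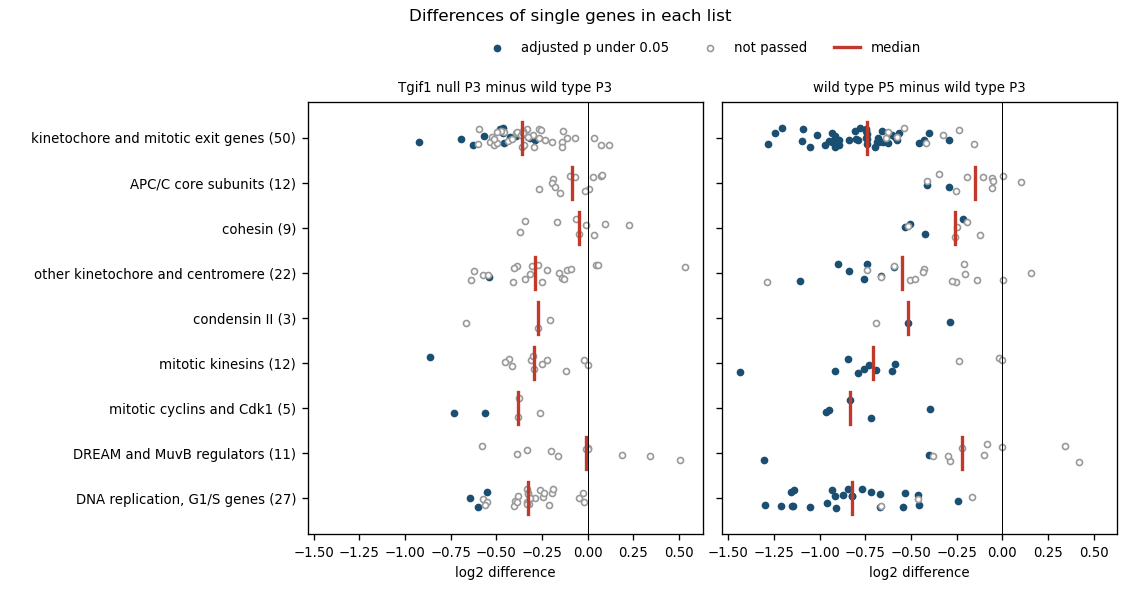
Log2 differences of single genes (points, filled where the adjusted p was under 0.05) and their medians (red lines) for the 50 genes and for 8 neighbouring lists, with the number of genes in brackets, for Tgif1 null P3 minus wild type P3 (left) and wild type P5 minus wild type P3 (right). Medians of the 50 genes are -0.36 and -0.74, and those of the APC/C core are -0.08 and -0.15.

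The 50 genes also varied within groups. In the null group, the median SD over 3 arrays was 0.13 and the highest 0.50 (Cenpi), at P5 it was 0.07 and 0.20 (Cenpn), and at P3 it was 0.10 and 0.50 (Mad1l1). Null replicate 1 was level with another null array in Nek2, Cenpf, Cdc20 and Mad1l1, and such ties are counted here as lowest or highest. For 21 genes null replicate 1 was the lowest of its group and P3 replicate 2 the highest of its own. For another 21 it was the reverse. Nusap1, for example, read 7.79 on null replicate 1, against 8.38 and 8.59 on the other null arrays, and 8.78 on P3 replicate 2, against 8.50 and 8.38 on the other P3 arrays. Plk1 did the opposite, at 10.12 against 9.65 and 9.61 in the null and at 9.95 against 10.30 and 10.29 at P3. Across the 50 genes, the deviation of null replicate 1 from its group and that of P3 replicate 2 from its own had a Pearson r of -0.74, as a description, since genes of an array are not independent. The same arrays deviated in opposite ways over 17339 probe-sets (r = -0.63), the lowest r of any pair of arrays from different groups. This pair is thus an extreme taken from these data. The highest r, 0.64, was that of null replicate 3 with P3 replicate 2. Null replicate 1 was also the null array with the highest summed macrophage signal, 1286, and muscle signal, 6140, whose part in these deviations was not tested.

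**Figure D5:**
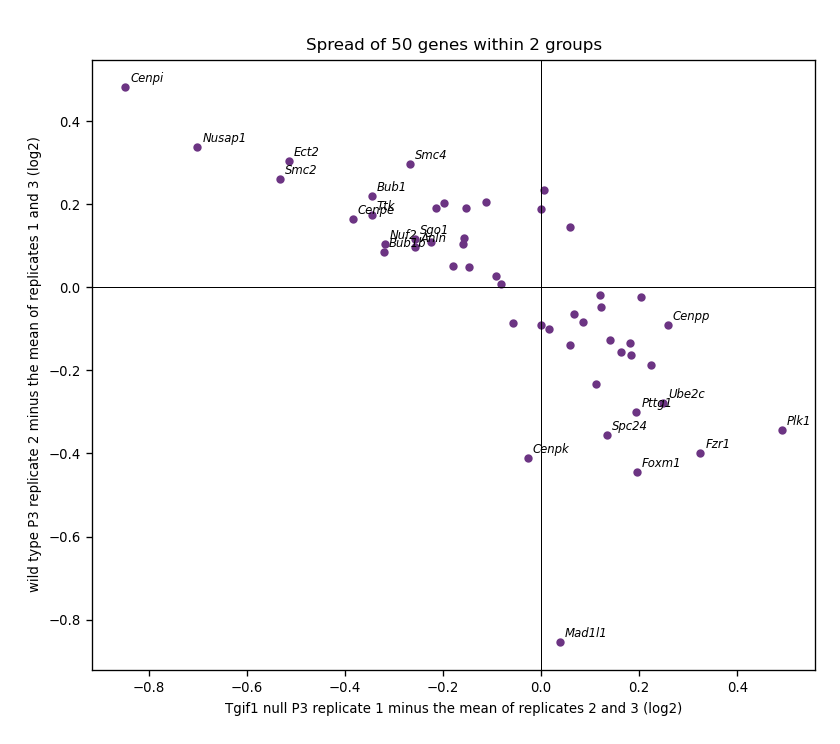
Deviation of each of the 50 genes on Tgif1 null P3 replicate 1 from the mean of the other 2 null arrays (horizontal axis, log2) against its deviation on wild type P3 replicate 2 from the mean of the other 2 P3 arrays (vertical axis, log2). Points run from the upper left (Cenpi, Nusap1, Ect2, Smc2) to the lower right (Plk1, Fzr1, Foxm1), with Mad1l1 near background at the bottom.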

How the data were processed

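RNA from 9 cultures was hybridized to Affymetrix MOE430 2.0 arrays. The log2 values deposited by the authors hold 1 signal for each probe-set on each array. The submitters' processing notes name GCRMA and limma without versions, and no further normalization was applied. Annotation gave 1 symbol to 34958 of 45101 probe-sets, several to 932 and none here to 9211.

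A mean for each of 3 groups was fitted over the 9 arrays in limma 3.58.1 (R 4.3.3), with Benjamini-Hochberg adjustment over all probe-sets within a comparison, and a gene passed at an adjusted p under 0.05 ("rose", "fell"). The prior contributed 0.345 degrees of freedom and the arrays 6. The script was tested on simulated data. Precision was limited by the number of arrays. The p-values reflect only how far these cultures differed, which may be technical. With 3 arrays a group an exact permutation test could not go below p = 0.1, so none was used.

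Values on every array are given for Bub1b, Cenpf and Aurkb, for the 2 genes of each role with the smallest p at P5 and the 1 with the smallest p in the null, both relative to P3, and for genes the text contrasts with them, namely Ttk, Bub1, Nuf2, Nusap1 and Plk1. The markers of other cells were named by list. Of each neighbouring list the 2 genes with the smallest p in either comparison are named. All lists were, like the 50 genes, chosen with earlier results of these data known. Promoter windows and the motif search are described with the sequences. Alternatives tried were another test rule, a filter on low signals, another prior, 2 normalizations, a replicate block, only the 6 arrays compared, the mean over a gene's probe-sets, and each array left out.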

Additional observations from a re-analysis of the deposited data

How the results depend on the processing

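Directions of the 50 genes hardly moved: under the alternatives, 46 to 48 were lower in the null and all tested were lower at P5, both relative to P3. How many passed did move. Of the 13, 42 and 27 genes that passed (lower in the null, lower at P5, and higher in the null than at P5), a filter to probe-sets with a log2 signal above 4 on at least 3 arrays gave 25, 45 and 31. A prior fitted along the mean signal and made robust to extreme variances, 2 changes at once, gave 0, 32 and 7, although 35 were lower in the null at an unadjusted p under 0.05. With that filter and this same prior together, an alternative chosen after seeing the data, it was 26, 45 and 31. Only the 6 arrays compared gave 1, 40 and 17, and the F test at p under 0.0001 with a log2 difference of at least 0.5 gave 1, 16 and 8. Quantile normalization (14, 43 and 25), median centring (19, 44 and 28) and the mean over a gene's probe-sets (13, 40 and 25) kept the counts within 1.5 times. Of the 13 genes in the null, 13 still passed under each normalization, but only 7 with the mean over probe-sets. Centring gave 1137 against 717 probe-sets passed in the null comparison. The mean over probe-sets gave medians of -0.27, -0.54 and 0.26, against -0.36, -0.74 and 0.41.

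Replicate numbers did not pair the arrays, since deviations of same-numbered arrays correlated from -0.51 to 0.42. Those of differently numbered arrays from different groups correlated from -0.63 to 0.64. With the number as a block, 2, 33 and 16 genes passed. Leaving out each array gave 1 to 14, 32 to 43 and 16 to 25 genes, and medians of -0.41 to -0.35, -0.75 to -0.72 and 0.36 to 0.42. Over all probe-sets, 717, 3889 and 3258 passed, against 1563, 6035 and 5246 with the filter, 59, 1297 and 1071 with the other prior, 1598, 6176 and 5391 with both, 141, 2247 and 1763 with the block, 123, 2957 and 2025 with 6 arrays, and 256, 674 and 659 by the F test. The cause of these shifts was not tested. Signals near background, as for Mad1l1, limit what a decrease can show.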
